A study of Mus musculus with 15 samples.

Results

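The genes described here are 6 matrix metalloproteinases (Mmp8, Mmp9, Mmp12, Mmp13, Mmp14 and Mmp19), 3 tissue inhibitors of metalloproteinases (Timp1, Timp2 and Timp3) and the related protease Adam8. They were found by symbol in a table of gene counts, where each had 1 row among 40510 genes. The samples were alveolar macrophages, phagocytes that live in the airspaces of the lung, collected by bronchoalveolar lavage from naive mice and sorted as CD45+ Ly6G- SiglecF+ CD11c+. The mice were either C57BL/6 wild type or knockouts of Cybb on that background, which serve as a model of chronic granulomatous disease (CGD). Cybb encodes the catalytic subunit of the phagocyte NADPH oxidase.

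There were 5 groups of 3 replicate libraries. CD11b-low cells were taken from wild-type mice at 4 weeks, from knockout mice at 4 weeks, from wild-type mice at 12 weeks and from knockout mice at 12 weeks. CD11b-high cells were taken from knockout mice at 12 weeks only, so no wild-type counterpart of that sort was measured here. Each library came from about 50000 cells of 2 to 3 pooled mice. The knockout is present in every cell of the animal, and the CD11b split uses surface protein. In such bulk libraries a higher share of cells with a transcript and more of it per cell cannot be told apart.

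Matrix metalloproteinases are zinc-dependent endopeptidases that are made as inactive proenzymes and cleave collagens, elastin and other proteins outside the cell. TIMPs bind their active sites and block them, and Timp2 together with Mmp14 also takes part in activating other family members at the cell surface. Macrophages are the main source of Mmp12, which is also called macrophage elastase and is best known in the lung for breaking down elastin in emphysema models.

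Depth was 22856331 to 36458893 counts per library. Levels are counts relative to the library total (CPM) after TMM scaling, which corrects the totals for composition. For the targeted gene Cybb the 9 knockout libraries ranged from 129 to 221 CPM and the 6 wild-type ones from 899 to 2319 CPM, so reads of the locus were still counted in knockout cells but the genotypes did not overlap. All 16 alveolar macrophage markers checked were detected in every library, although some differed in level between groups, as given below. Summed neutrophil, monocyte and dendritic cell markers were highest in CD11b-high libraries, while T and NK cell, erythroid and fibroblast markers overlapped between the 2 knockout sorts. Of the 10 genes, 9 had enough counts to be tested and Timp3 did not.

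Differences were tested with edgeR's quasi-likelihood test on 13284 genes, and a gene was called where its Benjamini-Hochberg adjusted p was under 0.05. In CD11b-low cells at 12 weeks, knockout exceeded wild type for 2 of the 9 genes tested, Mmp12 and Mmp14, against 3.1% of all genes called. At 4 weeks the same comparison called 0 of the 9, against 0.0979% of all genes. None of the 9 had an unadjusted p under 0.05 at 4 weeks by edgeR, where 199 of the 13284 genes did, and DESeq2 and limma voom also called 0. Mmp9 was kept for testing only through its counts in CD11b-high libraries. It had 0 counts in both 4-week groups, so it could not be called there. Mmp13 held 6 counts in all in the 4-week knockout and 0 in the 4-week wild-type libraries, and Mmp14 held 25 and 12. For these 2 genes the 4-week test could hardly have called a difference. Within 12-week knockout mice, CD11b-high cells exceeded CD11b-low cells for 3 of the 9 (Mmp12, Mmp13 and Adam8), against 0.693% of all genes. That count was 5 without CD11b-high replicate 1, 1 without CD11b-high replicate 2 or 3 or CD11b-low replicate 1, and 0 without CD11b-low replicate 2 or 3. With the replicate number as a block 3 genes were called, Mmp9 and Mmp12 as higher and Mmp8 as lower, and Mmp13 and Adam8 were not (adjusted p = 0.173 and 0.259).

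CD11b-high knockout cells exceeded CD11b-low wild-type cells of the same age for 7 of the 9, which were Mmp9, Mmp12, Mmp13, Mmp14, Mmp19, Timp1 and Adam8, against 14.8% of all genes. That comparison changes genotype and sort at once, and it shares its wild-type libraries with the 12-week genotype comparison. From 4 to 12 weeks, Timp2 was the 1 gene of the 9 called in wild-type cells, against 17.2% of all genes. Mmp9 had 0 counts in both wild-type groups and could not be called there. Mmp13 (0 counts in all at 4 weeks and 5 at 12 weeks) and Mmp14 (12 and 5) could hardly be called in wild-type cells either. In CD11b-low knockout cells 4 were called (Mmp12, Mmp14, Timp2 and Adam8), against 6.89%. The latter count was 2 (Mmp12 and Mmp14) without any of the 4-week replicates or the 12-week replicate 1. The change with age differed between genotypes for 1 gene, Mmp12, against 0.248% of all genes. Every call in these comparisons, apart from Mmp8 with the block, was in the direction of a higher level. The median log2 difference over the 9 genes was 1.99 for knockout against wild type at 12 weeks, 0.01 at 4 weeks and 2.26 between the 2 knockout sorts, while over all genes tested it was -0.04, -0.01 and 0.01.

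**Figure D1:**
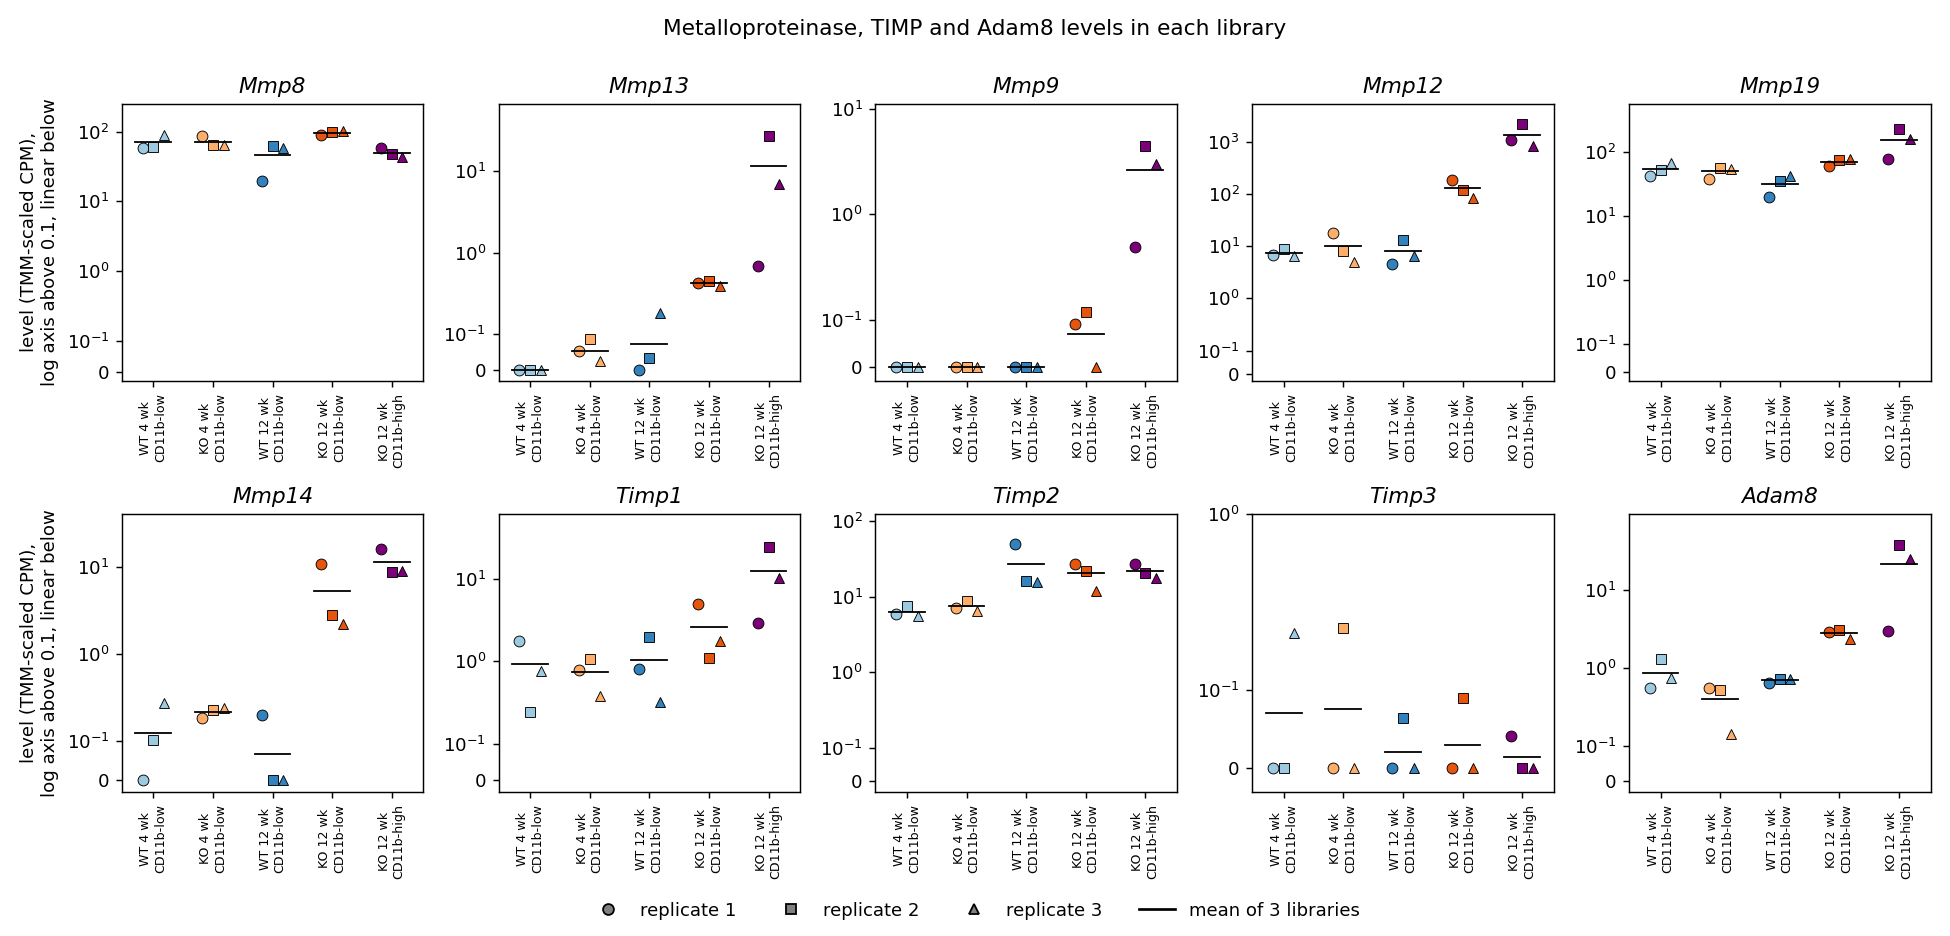
Level of each of the 10 genes in each of the 15 libraries (CPM, logarithmic above 0.1 and linear below), by group, with WT for wild type and KO for Cybb knockout. Points are replicates 1 to 3 and bars are means. Mmp12 lies between 4.51 and 17.5 CPM in the 9 libraries of the first 3 groups and between 843 and 2133 CPM in the CD11b-high libraries.

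Mmp12, the macrophage elastase, had the widest range among the abundant members. Its level was 6.69, 8.82 and 6.56 CPM in wild-type cells at 4 weeks and 4.51, 13.2 and 6.48 CPM in wild-type cells at 12 weeks. Knockout CD11b-low cells gave 17.5, 8.09 and 5.05 CPM at 4 weeks and 182, 117 and 83.4 CPM at 12 weeks. CD11b-high knockout cells gave 1055, 2133 and 843 CPM. The 9 libraries of both 4-week groups and of the 12-week wild type overlapped, the 12-week CD11b-low knockout libraries were all above them, and the CD11b-high libraries were all above those.

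At 12 weeks Mmp12 averaged 128 ± 50.2 CPM (SD, n = 3) in knockout and 8.05 ± 4.53 CPM in wild-type CD11b-low cells, which differed by 3.98 on the log2 scale (SE 0.52, adjusted p = 0.000329 by edgeR). At 4 weeks the difference was 0.47 (SE 0.46, adjusted p = 1), or -0.16 without knockout replicate 1. With age it rose in CD11b-low knockout cells by 3.65 on the log2 scale (SE 0.51, adjusted p = 0.000427), whereas in wild-type cells the difference was 0.13 (SE 0.47, adjusted p = 0.876), or -0.42 without the 12-week replicate 2. The test of the difference between these age changes gave 3.51 (SE 0.67, adjusted p = 0.0349). This call was lost with limma voom (3.64, adjusted p = 0.052) and when any of 9 of the 12 libraries was left out. It remained without replicate 1 of the 4-week knockout (log2 4.15), replicate 3 of the 12-week CD11b-low knockout or replicate 2 of the 12-week wild type. Over all 12 omissions the adjusted p ran from 0.0231 to 0.148. The knockout rise with age was 4.28 without replicate 1 of the 4-week knockout, its highest library at that age.

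Markers of other cells moved with these 12-week differences of CD11b-low cells. In knockout libraries of that age the 12 T and NK cell markers summed to 39.9 to 114 CPM, against 3.50 to 6.49 CPM in the wild type, and 5 of the 11 tested were called higher. The 6 eosinophil markers summed to 124 to 617 CPM against at most 17.3 CPM, and the 9 dendritic cell markers to 69.9 to 109 CPM against 28.4 to 34.4 CPM, with 1 of 3 and 1 of 9 tested called higher. Of the 6 eosinophil markers, 2 to 4 were at 0 counts in these knockout libraries. Replicate 1, with the highest sum, had 4 at 0, so the sum does not describe the whole list. The 5 erythroid markers went the other way, with 67.9 to 123 CPM against 493 to 1355 CPM, and 4 of the 5 were called lower. Of the 16 alveolar macrophage markers, 2 (Ear1 and Ear2) were called lower and 0 higher. Of all genes tested in this comparison, 2.6% were called higher and 0.497% lower. The part of these markers in the results was not tested.

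In CD11b-high cells Mmp12 averaged 1344 ± 692 CPM, 3.40 higher on the log2 scale than in CD11b-low cells of knockout mice (SE 0.50, adjusted p = 0.00527). The ratio within replicate numbers was 5.79, 18.2 and 10.1, and with the replicate number as a block the value was 3.37 (adjusted p = 0.00224). The call was lost without CD11b-low replicate 2 (3.28, adjusted p = 0.0685) or replicate 3 (3.16, adjusted p = 0.0583). Against 12-week wild-type cells the CD11b-high cells were higher by 7.38 (SE 0.60, adjusted p = 9.89e-07).

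**Figure D2:**
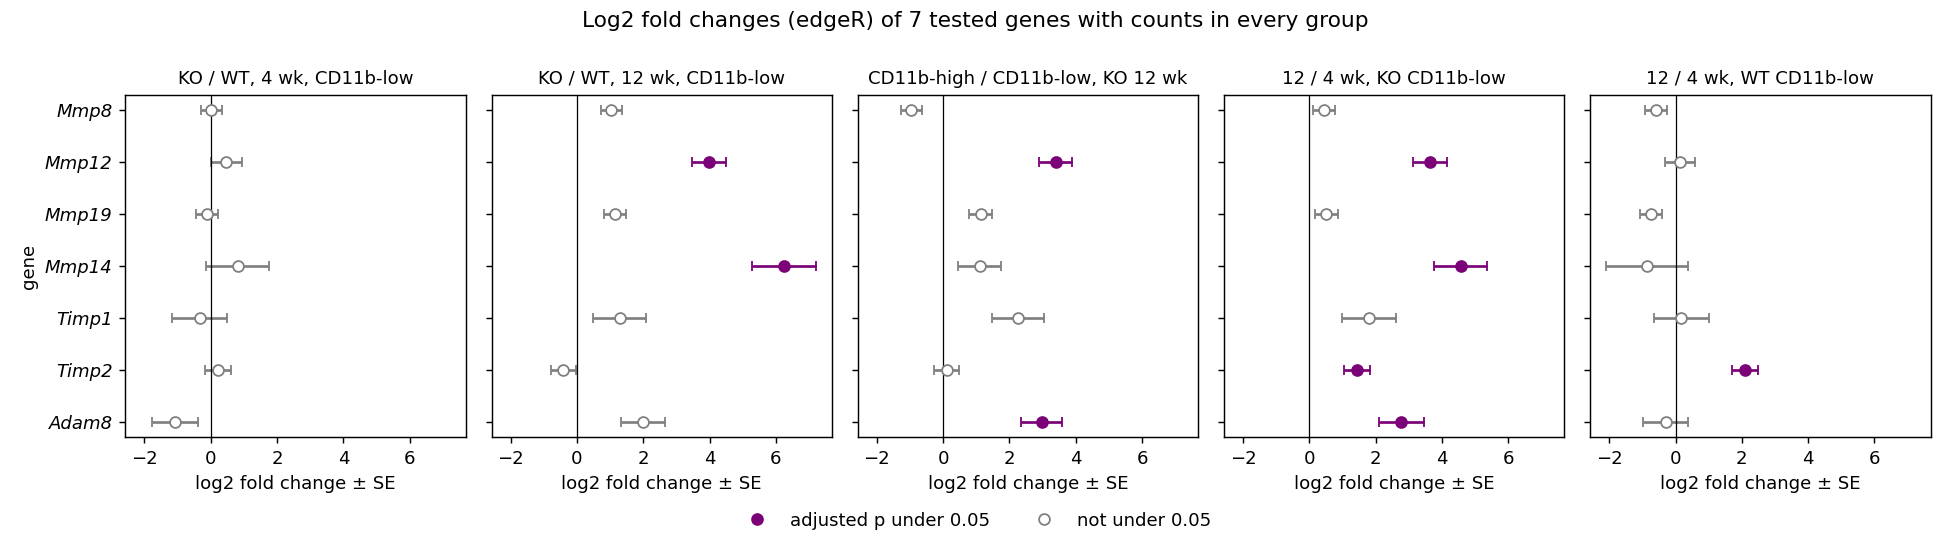
Log2 fold changes with their SE (edgeR) for the 7 tested genes that had counts in every group, in 5 comparisons, with WT for wild type and KO for Cybb knockout. Filled points had an adjusted p under 0.05. Mmp12 is at 3.98 for knockout against wild type at 12 weeks and at 0.47 at 4 weeks.

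Mmp8 and Mmp13 are collagenases, able to cut fibrillar collagen, and Mmp8 is also known as neutrophil collagenase. In GENCODE M21 on GRCm38 they lie with Mmp12 in a cluster of 10 Mmp genes on chromosome 9, Mmp13 at chr9:7272514-7283331, Mmp12 at chr9:7344381-7369499 and Mmp8 at chr9:7558456-7568485, all on the plus strand. Counts in the cluster came almost wholly from these genes, with 113631 for Mmp12, 31841 for Mmp8 and 870 for Mmp13 over the 15 libraries. Of the other cluster genes, Mmp10 had 185 counts, Mmp27 12, Mmp3 5, Mmp7 4, Mmp20 3, Mmp1a 1 and Mmp1b 0. Mmp1b overlaps Mmp12 on the other strand over 157 exon bases (2.17% of the exons of Mmp12).

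The bases before the transcription starts differed between the cluster genes in a motif of AP-1, a transcription factor family of Fos and Jun proteins that is known to act on several Mmp promoters. RefSeq promoters on GRCm38.p6 were found for 8 of the 10 genes described here, and the 250 bases before each start were searched on both strands for AP-1 (TGANTCA, with N any base) and for a TATA motif (TATAAA). These motifs do not overlap each other. AP-1 was found in 2 of the 8, Mmp13 and Mmp12, and in 6 of the 14 other Mmp genes with a promoter, all in the cluster (Mmp1a, Mmp1b, Mmp3, Mmp7, Mmp10 and Mmp20). Of all 32817 promoters, 6.75% held AP-1, 12.4% held TATA and 1.21% held both. A match describes the letters only, and no binding was measured.

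Shown are the 120 bases before the start of Mmp13 (chr9:7272394-7272513, plus strand), of the internal start of Mmp12 (chr9:7347254-7347373, plus strand), of Mmp8 (chr9:7558309-7558428, plus strand) and of Adam8 (chr7:139992563-139992682, minus strand), 5′ to 3′ from RefSeq on GRCm38.p6, with AP-1 and TATA matches in capitals. They were chosen because Mmp13 and Mmp12 were called higher in CD11b-high than in CD11b-low knockout cells and hold the AP-1 motif. Adam8 was also called higher and Mmp8, in the same cluster, was not, and neither holds it. With the replicate number as a block Mmp13 and Adam8 were not called, and a link of motif and level was not tested.
Mmp13: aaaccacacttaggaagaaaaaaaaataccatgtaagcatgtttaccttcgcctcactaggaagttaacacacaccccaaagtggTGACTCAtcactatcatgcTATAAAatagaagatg
Mmp12, internal start: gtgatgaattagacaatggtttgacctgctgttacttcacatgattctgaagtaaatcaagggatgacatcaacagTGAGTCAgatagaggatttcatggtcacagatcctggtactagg
Mmp8: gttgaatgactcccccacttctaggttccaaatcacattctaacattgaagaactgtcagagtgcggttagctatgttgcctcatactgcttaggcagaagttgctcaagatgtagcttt
Adam8: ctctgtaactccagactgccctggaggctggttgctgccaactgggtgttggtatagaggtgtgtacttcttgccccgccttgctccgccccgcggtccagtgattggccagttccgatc

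In Mmp13 the AP-1 match lay 35 to 29 bases and the TATA match 16 to 11 bases before the start. In Mmp12 the AP-1 match lay 44 to 38 bases before the internal start, and the upstream start had none in its 250 bases. Mmp10, which carries both motifs, had few counts, and Mmp1b, which carries both, had 0. Which Mmp12 start was used cannot be read from gene counts.

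**Figure D3:**
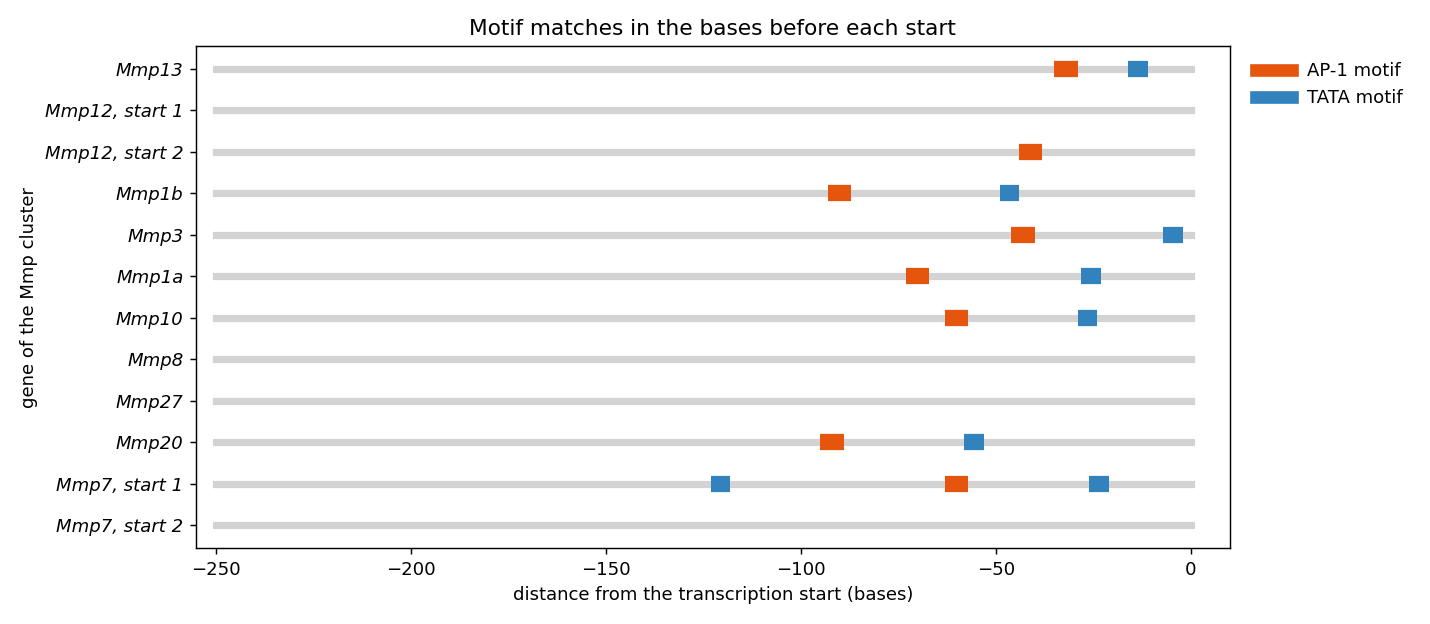
Positions of AP-1 and TATA motif matches in the 250 bases before each RefSeq start of the 10 Mmp genes of the chromosome 9 cluster, as distance from the start in bases. Every AP-1 match lies within 95 bases of its start. Mmp8, Mmp27 and the first start of Mmp12 and second of Mmp7 have none.

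Mmp8 did not follow Mmp12. It stood at 58.6, 60.5 and 90.3 CPM in wild-type and at 85.2, 63.2 and 63.0 CPM in knockout cells at 4 weeks. At 12 weeks it stood at 19.6, 61.2 and 58.3 CPM in wild-type cells, 88.7, 97.7 and 100.4 CPM in CD11b-low knockout cells and 57.8, 47.2 and 43.0 CPM in CD11b-high knockout cells. The CD11b-low knockout libraries at 12 weeks were thus above all others of that age without overlap, and replicate 1 of the wild type was the lowest of the 15. The 4-week groups overlapped each other, as did 12-week wild-type and CD11b-high cells. Knockout against wild type at 12 weeks gave 1.04 (SE 0.33, adjusted p = 0.092).

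Mmp8 was the 1 tested gene with a lower estimate in CD11b-high than in CD11b-low knockout cells, -0.95 (SE 0.32, adjusted p = 0.248). The ratio was 0.652, 0.483 and 0.428 in the 3 replicate numbers, and with the replicate number as a block the difference passed the test (-0.95, SE 0.18, adjusted p = 0.0332). CD11b-high knockout cells did not differ detectably from wild-type cells in Mmp8 (0.09, SE 0.32, adjusted p = 0.889), and the estimate was -0.28 without wild-type replicate 1 and -0.05 without CD11b-high replicate 1.

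Mmp13 was close to the limit of detection outside CD11b-high cells. It had 0 counts in the 3 wild-type libraries at 4 weeks, 1 to 3 counts in knockout libraries at 4 weeks, and 0, 1 and 4 counts in wild-type libraries at 12 weeks. CD11b-low knockout libraries at 12 weeks held 12 to 15 counts each, or 0.427, 0.447 and 0.392 CPM, and CD11b-high libraries held 17, 579 and 222 counts, or 0.693, 27.1 and 6.88 CPM. The 12-week knockout groups did not overlap each other or the rest, but CD11b-high replicate 1 was near the CD11b-low level. A count of 0 allows up to 3 counts, which correspond to 0.0793 to 0.103 CPM in the wild-type libraries at 4 weeks.

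For Mmp13, CD11b-high cells exceeded CD11b-low cells of knockout mice by 4.76 (SE 0.97, adjusted p = 0.0408). With the replicate number as a block the estimate was 3.92 and the call was lost (adjusted p = 0.173). It was also lost when any of 5 of the 6 libraries was left out (3.15 without CD11b-high replicate 2, adjusted p = 0.205), and remained without CD11b-high replicate 1 (5.31, adjusted p = 0.000871). Against wild-type cells at 12 weeks the CD11b-high level was higher by 7.38 (SE 1.21, adjusted p = 0.00107), 9.06 without wild-type replicate 3 and 5.76 without CD11b-high replicate 2. The corresponding limma voom value had an adjusted p of 0.0845.

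Mmp9 encodes gelatinase B, which cleaves denatured collagen and type IV collagen of basement membranes and is abundant in neutrophil granules. It lies at chr2:164940780-164955850 on the plus strand. The 9 libraries of both 4-week groups and of the 12-week wild type had 0 counts. CD11b-low knockout libraries at 12 weeks had 3, 4 and 0 counts, and CD11b-high libraries had 12, 95 and 97 counts, or 0.489, 4.45 and 3.01 CPM. All CD11b-high libraries were thus above all others, with replicate 1 the lowest of them.

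CD11b-high cells were at least 22.5-fold higher in Mmp9 than wild-type cells at 12 weeks, with each wild-type library set to a floor of 3 counts (adjusted p = 0.00256). Against CD11b-low knockout cells the estimate was 5.14 (SE 1.06) and missed the threshold (adjusted p = 0.0574). It passed with the replicate number as a block (4.94, adjusted p = 0.0266), with limma voom (5.46, adjusted p = 0.0443) and without CD11b-high replicate 1 (5.62, adjusted p = 0.0167).

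Mmp14 encodes a membrane-anchored metalloproteinase (MT1-MMP) that cleaves collagen at the cell surface and activates pro-MMP2. It lies at chr14:54431612-54445364 on the plus strand. It was near 0 in 3 groups, with 0, 0.103 and 0.272 CPM in wild-type and 0.184, 0.226 and 0.239 CPM in knockout cells at 4 weeks, and 0.201, 0 and 0 CPM in wild-type cells at 12 weeks. CD11b-low knockout cells at 12 weeks gave 10.8, 2.77 and 2.19 CPM, and CD11b-high cells gave 16.0, 8.81 and 8.89 CPM. The low groups overlapped, all 6 knockout libraries at 12 weeks were above them, and the CD11b-low and CD11b-high libraries overlapped through CD11b-low replicate 1.

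In CD11b-low cells at 12 weeks Mmp14 rose with the knockout by 6.26 on the log2 scale (SE 0.97, adjusted p = 0.00136). The wild-type libraries held 5 counts in all, so the size depends on them. It was 10.38 without wild-type replicate 1, which held all 5, 5.59 without wild-type replicate 2 and 5.18 without knockout replicate 1, and remained called in each of these. The 10.38 is set against 0 wild-type counts, so the data do not fix its size. With age in CD11b-low knockout cells it rose by 4.57 (SE 0.80, adjusted p = 0.00299), or 3.49 without the 12-week replicate 1. The difference between the age changes of the genotypes was 5.45 (SE 1.46, adjusted p = 0.192) and did not pass. It ran from 4.11 without replicate 3 of the 4-week wild type to 9.57 without replicate 1 of the 12-week wild type. The latter again left the 12-week wild type at 0 counts. The difference between the age changes passed under none of the 12 omissions.

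Between CD11b-high and CD11b-low knockout cells Mmp14 differed by 1.10 (SE 0.65, adjusted p = 0.647), and by 2.17 without CD11b-low replicate 1 (adjusted p = 0.2). Against wild-type cells the CD11b-high level was higher by 7.35 (SE 0.98, adjusted p = 8.22e-05). That value was 11.47 without wild-type replicate 1, which left the wild type at 0 counts and the size not fixed by the data. It was 6.68 without wild-type replicate 2.

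Mmp19, a secreted metalloproteinase with a broad set of substrates, lies at chr10:128790910-128800824 on the plus strand. It was 41.5, 50.7 and 66.3 CPM in wild-type and 36.8, 55.7 and 54.3 CPM in knockout cells at 4 weeks, and 19.4, 34.1 and 41.1 CPM in wild-type cells at 12 weeks. Knockout cells at 12 weeks gave 58.4, 73.9 and 76.9 CPM in the CD11b-low and 77.4, 223 and 158 CPM in the CD11b-high sort. Wild-type cells at 12 weeks were below both knockout groups of that age without overlap. The 2 knockout groups at 12 weeks did not overlap either, although CD11b-high replicate 1 was 77.4 CPM and the highest CD11b-low library 76.9 CPM.

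CD11b-high knockout cells were higher than wild-type cells in Mmp19 by 2.28 (SE 0.35, adjusted p = 0.000372). Neither step passed alone, with 1.15 for knockout against wild type in CD11b-low cells (SE 0.34, adjusted p = 0.0802) and 1.13 for CD11b-high against CD11b-low (SE 0.34, adjusted p = 0.171). The latter passed without CD11b-high replicate 1 (1.45, adjusted p = 0.0242). Of the exons of Mmp19, 789 bases (22.3%) are shared with Tmem198b and 212 bases (6%) with the predicted gene Gm47093. Without a known strand setting of the counting, reads of overlapping genes cannot be told apart. Tmem198b averaged 6.52 to 8.99 CPM in the 5 groups.

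Timp1 is the inducible inhibitor of the family, secreted by activated macrophages and stromal cells. It lies at chrX:20870166-20874735 on the plus strand, within Syn1, with which it shares 0 exon bases. It stood at 1.77, 0.240 and 0.756 CPM in wild-type and 0.790, 1.07 and 0.383 CPM in knockout cells at 4 weeks, and at 0.805, 1.97 and 0.320 CPM in wild-type cells at 12 weeks. Knockout cells at 12 weeks gave 4.88, 1.10 and 1.76 CPM in the CD11b-low sort and 2.94, 24.0 and 10.3 CPM in the CD11b-high sort. Both 4-week groups and the 12-week wild type overlapped one another, CD11b-low knockout cells at 12 weeks overlapped the wild-type groups, and CD11b-high replicate 1 fell within the CD11b-low knockout range.

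For Timp1 only the step from wild-type to CD11b-high knockout cells passed among the 7 comparisons (3.54, SE 0.85, adjusted p = 0.0108). That call was lost without wild-type replicate 1 (3.37, adjusted p = 0.0558) or without CD11b-high replicate 2 (2.65, adjusted p = 0.0606), and the value was 4.43 without wild-type replicate 2. CD11b-high against CD11b-low cells gave 2.26 (SE 0.79, adjusted p = 0.272), with replicate ratios of 0.601, 21.7 and 5.82.

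Timp2, a constitutive inhibitor that also bridges pro-MMP2 to Mmp14, passed the test with age and not with genotype. It lies at chr11:118301069-118355740 on the minus strand. It was 5.87, 7.55 and 5.56 CPM in wild-type and 7.03, 8.80 and 6.41 CPM in knockout cells at 4 weeks. At 12 weeks it was 49.1, 16.0 and 15.7 CPM in wild-type cells, 26.6, 22.2 and 12.0 CPM in CD11b-low knockout cells and 26.7, 20.8 and 17.8 CPM in CD11b-high cells. The 3 groups at 12 weeks overlapped one another and were all above the 4-week groups, which also overlapped, and wild-type replicate 1 was the highest library.

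Timp2 rose from 4 to 12 weeks by 2.09 in wild-type cells (SE 0.40, adjusted p = 0.00453) and by 1.45 in CD11b-low knockout cells (SE 0.39, adjusted p = 0.0356), and the test of the difference gave -0.64 (SE 0.55, adjusted p = 0.749), or 0.12 without the 12-week wild-type replicate 1. The wild-type rise was 1.33 without the 12-week replicate 1 (adjusted p = 0.00883). The knockout call remained only without the 12-week replicate 3, since leaving out any of the remaining 5 libraries lost it, with adjusted p from 0.0277 to 0.148 over all 6. The genotype difference at 12 weeks was -0.41 (SE 0.38, adjusted p = 0.564) and turned to 0.35 without wild-type replicate 1. That between CD11b-high and CD11b-low cells was 0.10 (SE 0.38, adjusted p = 0.967), or -0.17 without CD11b-low replicate 3 and -0.08 without CD11b-high replicate 1.

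Timp3, an inhibitor that binds to the extracellular matrix, lies at chr10:86300372-86349506 on the plus strand. It had counts in 1 library of each group, from 1 in a CD11b-high library to 8 in a knockout library at 4 weeks, and 0 in the other 10. It lies within Syn3 and shares 1733 exon bases (21.3%) with it. It was too low to be tested at this depth.

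Adam8 is a membrane-anchored metalloproteinase of myeloid cells that sheds surface proteins such as selectins and is not inhibited by TIMPs. It lies at chr7:139978932-139992562 on the minus strand, and 46 of its exon bases (0.992%) are shared with Gm16201. It stood at 0.555, 1.30 and 0.756 CPM in wild-type and 0.553, 0.536 and 0.144 CPM in knockout cells at 4 weeks, and at 0.644, 0.732 and 0.730 CPM in wild-type cells at 12 weeks. Knockout cells at 12 weeks gave 2.96, 3.10 and 2.35 CPM in the CD11b-low sort and 3.02, 37.7 and 25.2 CPM in the CD11b-high sort. Both knockout groups at 12 weeks were above the other groups without overlap, and CD11b-high replicate 1 lay within the CD11b-low range.

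Adam8 was higher in CD11b-high than in CD11b-low knockout cells by 2.97 (SE 0.62, adjusted p = 0.0334), a difference carried by replicates 2 and 3, whose ratios were 12.2 and 10.7 against 1.02 in replicate 1. With the replicate number as a block it was 2.51 and no longer called (adjusted p = 0.259). The call was lost without any of 5 of the 6 libraries, with 2.33 without CD11b-high replicate 2, and remained without CD11b-high replicate 1 (3.48, adjusted p = 0.000446).

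With age Adam8 rose in CD11b-low knockout cells by 2.78 (SE 0.67, adjusted p = 0.0211). The call remained without the 12-week replicates 2 or 3 and was lost without any of the other 4 libraries. Over all single omissions the adjusted p ran from 0.033 to 0.114. With limma voom the call was lost as well (adjusted p = 0.0685). Knockout against wild type at 12 weeks gave 1.99 (SE 0.65, adjusted p = 0.105). Against wild-type cells the CD11b-high level was higher by 4.96 (SE 0.70, adjusted p = 0.00015), or by 4.32 without CD11b-high replicate 2.

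**Figure D4:**
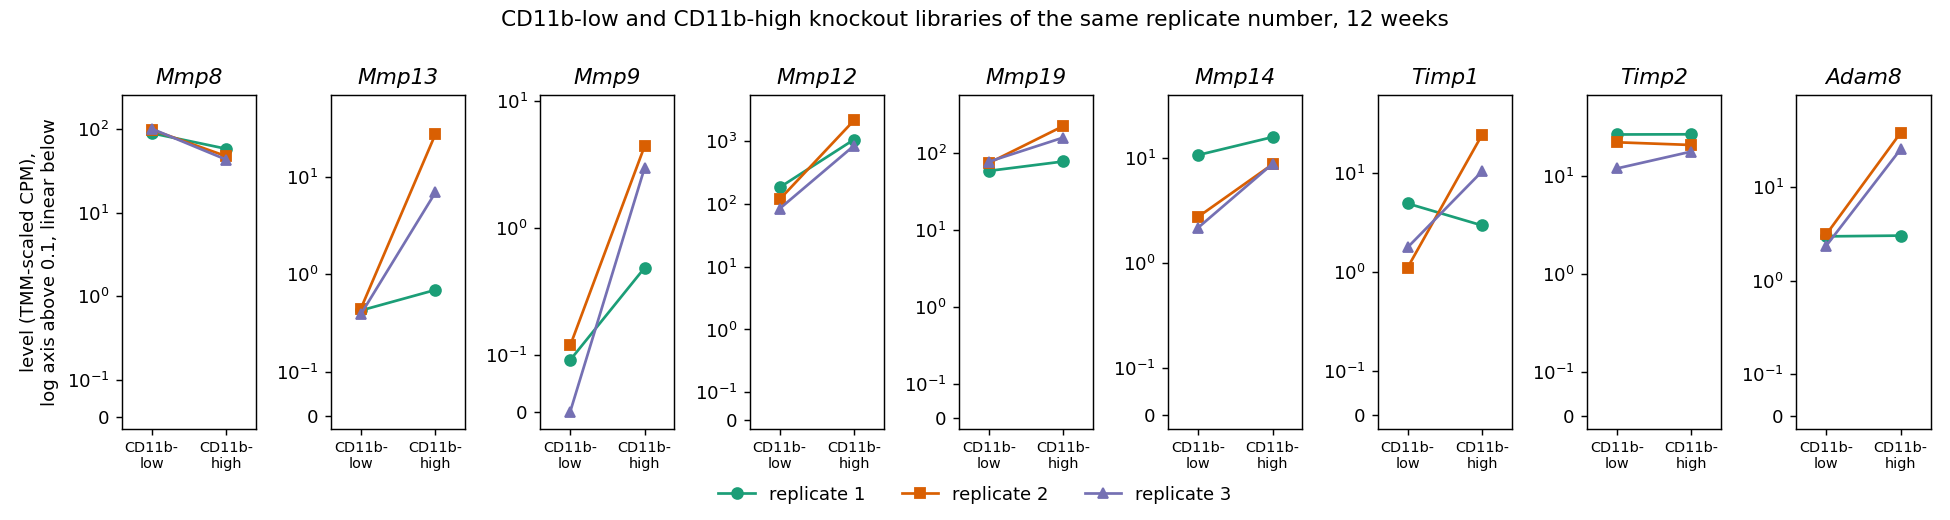
Levels of 9 genes (CPM, logarithmic above 0.1 and linear below) in CD11b-low and CD11b-high libraries of 12-week knockout mice, with lines joining libraries of the same replicate number. In replicate 1 Adam8 is level (ratio 1.02) and Timp1 lower (0.601) in CD11b-high cells, while Mmp12 is higher in all 3 replicates (5.79 to 18.2).

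CD11b-high replicate 1 thus stood near the CD11b-low level for Adam8, Mmp13, Timp1 and Mmp19, yet had the highest Mmp14 and the second highest Mmp12 of the 15 libraries. Itgam, which encodes CD11b, was 30.7 CPM in it against 88.4 and 61.5 CPM in replicates 2 and 3. The other 11 monocyte markers summed to 69.1 CPM in it, within the range of CD11b-low knockout libraries (64.2 to 73.9 CPM), against 253 and 153 CPM in replicates 2 and 3, with C1qb, a complement subunit of tissue macrophages, at 3.87 against 73.4 and 41.3 CPM. The 6 eosinophil markers summed to 999 CPM in replicate 1 against 312 and 425 CPM, with 3 of the 6 at 0 counts in replicate 1 and 1 in replicates 2 and 3. The part of these other transcripts in the results was not tested.

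Markers of other cells also moved with the sort. The 14 neutrophil markers summed to 345 to 513 CPM in CD11b-high libraries, 87.7 to 155 CPM in CD11b-low knockout libraries at 12 weeks and 56.4 to 85.3 CPM in the other 9. Between 1 and 4 of the 14 were at 0 in CD11b-high libraries, and Ly6g, which the sort selects against, was at 0 in all 15. The 12 monocyte markers include Itgam, the gene of the sort marker, and summed to 94.6 to 335 CPM in CD11b-high and 68.6 to 79.1 CPM in CD11b-low knockout libraries at 12 weeks. Without Itgam they summed to 69.1 to 253 CPM and 64.2 to 73.9 CPM, which overlap, and to 39.6 to 89.2 CPM in the other groups. The 9 dendritic cell markers summed to 125 to 577 CPM in CD11b-high libraries, 69.9 to 109 CPM in CD11b-low knockout libraries at 12 weeks and 18.4 to 34.4 CPM in the rest. T and NK cell markers (32.7 to 87.4 CPM against 39.9 to 114 CPM) and erythroid markers (49.5 to 151 CPM against 67.9 to 123 CPM) overlapped between the sorts, and 14 epithelial markers summed to 592 to 904 CPM in CD11b-high and 884 to 1097 CPM in CD11b-low libraries. Of the 16 alveolar macrophage markers 0 were called between the sorts by edgeR, where 0.693% of all genes were. Against 12-week wild-type cells the CD11b-high cells had 4 of the 16 called lower and 1 higher. Of all genes 5.6% and 9.23% were called lower and higher in that comparison. Mmp8 and Mmp9 are also neutrophil genes. Mmp8 was lower in each CD11b-high library than in any CD11b-low knockout library at 12 weeks, Mmp9 was higher in each, and the part of neutrophil transcripts in either was not tested.

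Divided by the merged exon length of all annotated transcripts, Mmp8 ranked first and Mmp19 second among the 10 genes in the 4 CD11b-low groups. That length was 7.237 kb for Mmp12 and 2.425 kb for Mmp8, and which transcripts were present is not known. In CD11b-low knockout cells at 12 weeks the order depends on it. Before division Mmp12 averaged 128 CPM and Mmp8 95.6 CPM there. Mmp8 averaged 28.8 and 19.1 CPM per kb in wild-type cells at 4 and 12 weeks and 29.1 and 39.4 CPM per kb in CD11b-low knockout cells. In CD11b-high cells Mmp12 ranked first at 186 ± 95.6 CPM per kb (SD, n = 3), Mmp19 second at 43.3 ± 20.7 and Mmp8 next at 20.3 ± 3.16. Mmp12 averaged 17.6 CPM per kb in CD11b-low knockout cells at 12 weeks and between 1.02 and 1.41 in the other groups.

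As a share of the summed CPM per kb of the 6 metalloproteinases, Mmp12 made up 74.9, 75.5 and 63.3% in CD11b-high libraries and 31.4, 20.8 and 15.3% in CD11b-low knockout libraries at 12 weeks. In the other 9 libraries it made up 1.59 to 5.03%. The share of Mmp8, which depends on Mmp12 through the common sum, was 56.8 to 73.2% in those 9, 45.6 to 55% in CD11b-low knockout libraries at 12 weeks and 4.99 to 12.3% in CD11b-high libraries. The shares of Mmp12 and Mmp8 thus differed without overlap among these sets of libraries, whereas that of Mmp19 overlapped (21.7 to 38.5%, 20.6 to 29% and 11.3 to 24.4%). The size of every share depends on the exon lengths used.

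**Figure D5:**
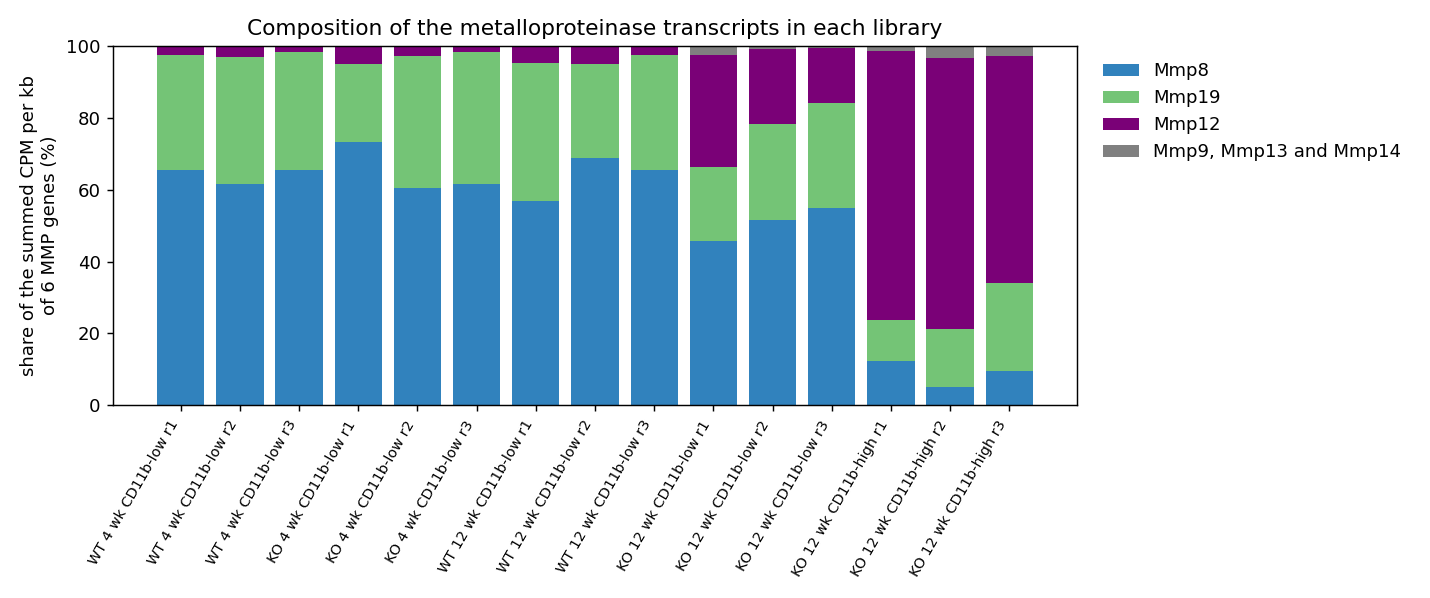
Share of Mmp8, Mmp19, Mmp12 and the 3 other members in the summed CPM per kb of 6 metalloproteinase genes (%), by library, with WT for wild type and KO for Cybb knockout. Mmp12 takes at most 5.03% in the first 9 libraries and 63.3 to 75.5% in the CD11b-high libraries.

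The sum of the 6 metalloproteinases was 195, 390 and 184 CPM per kb in CD11b-high libraries and 80.3, 78.1 and 75.2 in CD11b-low knockout libraries at 12 weeks. It was 14.2 to 57 CPM per kb in the other 9. The 3 inhibitors summed to 10.2, 32.3 and 16.1 CPM per kb in CD11b-high libraries and 12.3, 6.94 and 5.06 in CD11b-low knockout libraries at 12 weeks. In wild-type cells at 12 weeks they summed to 13.5, 6.35 and 4.39. The ratio of metalloproteinase to inhibitor transcripts was 19.1, 12.1 and 11.4 in CD11b-high libraries, 6.51, 11.3 and 14.9 in CD11b-low knockout libraries and 1.05, 5.79 and 8.35 in wild-type libraries at 12 weeks. It was 10.5 to 24.7 in the 6 libraries at 4 weeks. The CD11b-high ratios overlapped those of each 4-week group, and 2 of the 3 lay below the lowest 4-week knockout library (12.3). These are transcript sums over merged exon lengths, on which their size depends, and do not measure enzyme activity.

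Related genes were taken from lists of other metalloproteinases, ADAM proteases, regulators of the system, cathepsins, substrates and transcription factors. Of 17 other Mmp genes only 5 could be tested, and in 6 of the 7 comparisons 0 passed by edgeR. The exception was CD11b-high knockout against wild-type cells, where 2 rose and 9.23% of all genes were called higher. Mmp2, gelatinase A and a target of Mmp14 activation, averaged 6.26 ± 5.32 CPM (SD, n = 3) against 0.231 ± 0.258 CPM (log2 4.67, SE 1.0, adjusted p = 0.0047), a difference not called by DESeq2. It was 6.10 without wild-type replicate 2 and 3.70 without CD11b-high replicate 1. Mmp25, a membrane-anchored leukocyte enzyme, averaged 3.92 ± 3.17 against 0.243 ± 0.0376 CPM. Its log2 difference was 3.98 (SE 1.0, adjusted p = 0.0135), lost without wild-type replicate 1 (3.86, adjusted p = 0.0555), wild-type replicate 2 (4.02, adjusted p = 0.0516) or CD11b-high replicate 2 (3.25, adjusted p = 0.0765).

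Of 23 other ADAM genes 13 were tested. Adam17, the sheddase of TNF, rose in knockout CD11b-low cells at 12 weeks, to 91.3 ± 26.2 CPM against 39.2 ± 10.1 CPM in wild type (log2 1.22, SE 0.26, adjusted p = 0.0145). It was the 1 of the 13 called there, against 3.1% of all genes. The call was lost without knockout replicate 2 (0.97, adjusted p = 0.0803) or wild-type replicate 2 (1.03, adjusted p = 0.0672). In wild-type cells 3 of the 13 were called lower from 4 to 12 weeks, where 8.39% of all genes were. Adam17 fell by 1.69 (SE 0.26, adjusted p = 0.00211), from 126 ± 15.8 CPM, and Adam10 fell by 1.20 (SE 0.27, adjusted p = 0.00769). Adam22 was the other, at -1.53 to -1.08 over the single omissions, of which 3 lost the call. In CD11b-low knockout cells Adam22 was also called lower with age and Adam19 higher, where 2.08% and 4.81% of all genes were. Between CD11b-high and CD11b-low knockout cells 0 of the 13 passed by edgeR and 0 had an unadjusted p under 0.05, where 1332 of all 13284 genes did.

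The 9 genes of the cathepsin list, which are lysosomal proteases with matrix substrates and Acp5, an acid phosphatase of osteoclasts, were all tested. In CD11b-low cells at 12 weeks 3 rose with the knockout and 0 fell, against 2.6% and 0.497% of all genes. The list median was 1.05 on the log2 scale against -0.04 over all genes. Ctsk, a collagenolytic and elastolytic cathepsin, averaged 4985 ± 1576 against 1033 ± 358 CPM (log2 2.27, SE 0.34, adjusted p = 0.00102). Ctsl (1.12, adjusted p = 0.0391) was called there, and remained so only without knockout replicate 2 (1.33, adjusted p = 0.0226) among the 6 omissions. Acp5 (1.02, adjusted p = 0.041) lost its call without knockout replicate 1 (0.72, adjusted p = 0.129), wild-type replicate 1 (0.89, adjusted p = 0.0926) or wild-type replicate 3 (0.96, adjusted p = 0.082). Against wild-type cells the CD11b-high cells had 7 of the 9 higher and 0 lower, where 9.23% and 5.6% of all genes were. The largest values were Ctsk at 3.02, Ctsl at 1.78, Ctsb at 1.72 and Lgmn at 1.56. Between CD11b-high and CD11b-low knockout cells 0 of the 9 passed by edgeR, with 2 at an unadjusted p under 0.05. Of all 13284 genes 0.693% were called there, and 1332 had an unadjusted p under 0.05.

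Of 18 substrate genes of the family 8 were tested. In CD11b-high against CD11b-low knockout cells 2 rose, where 0.572% of all genes were called higher. Spp1, osteopontin, averaged 5300 ± 1330 against 2127 ± 742 CPM (log2 1.32, SE 0.29, adjusted p = 0.0467). With the replicate number as a block it was not called (1.36, adjusted p = 0.0598), and among single omissions remained called only without CD11b-low replicate 1 (1.63, adjusted p = 0.0202) or CD11b-high replicate 1 (1.46, adjusted p = 0.0242). Thbs1, thrombospondin-1, averaged 56.8 ± 49.3 against 1.04 ± 1.12 CPM with overlapping libraries (log2 5.78, SE 1.13, adjusted p = 0.0326). Its call remained only without CD11b-high replicate 1 (6.34, adjusted p = 0.000104), and the value was 7.06 without CD11b-low replicate 3 and 5.14 without CD11b-high replicate 3. Of 12 tested regulators (plasminogen activators, cystatins, Slpi, Bsg and others) and 13 tested transcription factors of the AP-1, ETS and related families, 0 passed in this comparison or in the genotype comparison at 12 weeks by edgeR. Between the sorts 2 of the regulators and 0 of the transcription factors had an unadjusted p under 0.05, and between the genotypes at 12 weeks 1 and 4. Of all 13284 genes tested, 1332 had such a p between the sorts and 2724 between the genotypes at 12 weeks.

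Plau, the urokinase that generates plasmin, was higher in CD11b-high knockout than in wild-type cells (6.67 ± 2.75 against 1.22 ± 0.760 CPM, log2 2.46, SE 0.50, adjusted p = 0.00304), a difference of 3.08 without wild-type replicate 3. It was the 1 of the 12 tested regulators called there, where 9.23% of all genes were called higher. With age in wild-type cells 2 of the 12 were called higher and 1 lower, against 8.79% and 8.39% of all genes. Slpi, an inhibitor of neutrophil elastase, rose by 2.47 (SE 0.39, adjusted p = 0.00233) to 2251 ± 862 CPM. It was also called higher with age in CD11b-low knockout cells, with 1.34 to 2.07 over the single omissions, of which 3 lost the call. The test of the difference between the age changes of Slpi gave -0.70 (SE 0.52, adjusted p = 0.711).

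Among 10634 genes with a mean of at least 1 CPM, those with the pattern most like Mmp12 by Pearson's r of log2(CPM + 1) were Slamf7 (0.993), Baiap2 (0.991) and Pmp22 (0.986). For Mmp14 they were 4933430I17Rik (0.986), Arnt2 (0.985) and Fam20c (0.983). For Mmp13 they were Ccl8 (0.992), Tm4sf19 (0.977) and C1qb (0.968), and for Adam8 they were Il1f9 (0.978), C1qb (0.977) and Ccl7 (0.973). Mmp9 was closest to Rbp4 (0.992), Tm4sf19 (0.986) and Mmp13 (0.982). The 15 libraries share their groups, so genes that separate CD11b-high cells from the rest correlate, and these values describe likeness only.

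Within the set, the correlation over the 15 libraries was 0.949 between Mmp12 and Mmp14, 0.952 between Mmp13 and Adam8 and 0.982 between Mmp9 and Mmp13. Mmp12 and Mmp14 are high in all 3 CD11b-high libraries, whereas Mmp9, Mmp13 and Adam8 are highest in replicates 2 and 3. Mmp8 correlated with the other 8 tested members between -0.492 and 0.196.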

How the data were processed

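RNA was sequenced from 15 sorted alveolar macrophage libraries in 5 groups of 3, made with a SMARTer kit. The authors deposited raw counts per gene. Per the submitters' processing notes, STAR and featureCounts of Subread were used. Versions, strand setting and genome build are not given in the sources used here, so counts of overlapping genes are uncertain. The table held 40780 rows, and 270 repeats of a gene were removed. Replicates were independent pools per the labels.

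The tests were run with edgeR 4.0.16 under R 4.3.3. The function filterByExpr (minimum count 10, minimum total 15) left 13284 genes and at least 99.93% of counts. A robust quasi-likelihood fit with TMM scaling held 1 coefficient per group, with 10 residual degrees of freedom. Tests were two-sided, with Benjamini-Hochberg adjustment over all genes at 0.05, and the scripts were checked on simulated data. SE is the log2 fold change over the root of F. A group with 0 counts was set to 3 counts per library for a fold given as at least. The log2 values of the fits, also with a library left out, did not use this floor. Such floors cover counting error only. Marker sums are CPM of the unscaled library totals.

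CD11b-high and CD11b-low knockout libraries of the same number in the titles deviated together (correlations 0.563, 0.474 and 0.150, against -0.479 to 0.115 for other numbers). The main tests held no replicate block and so ignored this pairing. The block is given as an alternative where it changes a call. Alternatives were DESeq2 1.42.0, limma voom (3.58.1), DESeq2 size factors, no filter, only the groups compared, a replicate block and leaving out each library. The members and gene lists were chosen with earlier results of these data known. Of each list up to 4 called genes per comparison with at least 1 CPM could be named, largest change first, besides all members, the Mmp cluster and the 3 genes most like a called member.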

Additional observations from a re-analysis of the deposited data

Results flagged for a closer look

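The change of Mmp12 with age differed between the genotypes by the test of the difference itself. In CD11b-low knockout cells it averaged 10.2 ± 6.48 CPM at 4 weeks and 128 ± 50.2 CPM at 12 weeks (SD, n = 3), and in wild-type cells 7.36 ± 1.27 and 8.05 ± 4.53 CPM. The log2 difference of the 2 changes was 3.51 (edgeR, adjusted p = 0.0349), the knockout libraries at 12 weeks were above those at 4 weeks in 3 of 3, and the wild-type libraries overlapped. Over the single omissions of the 12 libraries the value ran from 3.16 to 4.15 and the adjusted p from 0.0231 to 0.148. With limma voom the value was 3.64 and the call was lost (adjusted p = 0.052). Markers of other cells were higher in the 12-week knockout libraries of this comparison than in the other 9. Eosinophil markers summed to 124 to 617 CPM against at most 39.3 CPM, with 2 to 4 of the 6 at 0 counts in the 12-week knockout libraries. T and NK cell markers summed to 39.9 to 114 CPM against at most 6.49 CPM (Cd3g and Lck were called in the same test). Dendritic cell markers summed to 69.9 to 109 CPM against at most 34.4 CPM. Their part was not tested.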

How the results depend on the processing

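The counts of called genes among the 9 tested depended on the setting. For knockout against wild type at 12 weeks the count was 2, and it was 6 without a filter on low counts, 5 with DESeq2, 5 with a replicate block (Mmp8, Mmp12, Mmp14, Mmp19 and Adam8) and 2 to 2 when each library was left out. For CD11b-high against CD11b-low knockout cells it was 3, and it was 7 without a filter, 1 in a fit of only the groups compared (Mmp12), 2 with limma voom (Mmp9 and Mmp12), 3 with the replicate block (Mmp8, Mmp9 and Mmp12) and 0 to 5 over the omissions. With age in wild-type cells it was 1, and 2 without a filter. With age in knockout cells it was 4, 5 with a replicate block and 2 to 4 over the omissions. For the difference between the age changes it was 1, 3 without a filter, 3 with DESeq2, 0 with limma voom, 1 with a replicate block and 0 to 1 over the omissions. CD11b-high knockout against wild-type cells kept 6 to 7 in all settings, and knockout against wild type at 4 weeks 0. Over all genes, CD11b-high against CD11b-low cells called 92, and 533 without a filter, 274 with DESeq2, 165 with limma voom, 252 with the replicate block and 18 in a fit of only the groups compared. For knockout against wild type at 12 weeks these were 412, 1090, 864, 309, 655 and 189. Apart from the CD11b-high and CD11b-low knockout libraries, no comparison met the limit for pairing, a correlation over 0.1 in every replicate number. Between the genotypes at 12 weeks the values were 0.469, 0.0517 and 0.330, against -0.508 to 0.3075 for other numbers. A replicate effect shared by these groups was not tested. No called value of a single gene changed sign, 30 values of members that passed in neither setting did, 41 lost and 28 gained a call. For genes of the other lists, whose alternatives were added after the data were seen, 104 lost a call and 372 kept it. Mmp9, Mmp13 and Mmp14 rest on few counts outside 12-week knockout cells, which limits the size of their differences.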
